A study of Mus musculus with 81 samples.

Results

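The active form of Notch1 was introduced into cells depleted of RBPJ, the DNA-binding protein through which Notch1 is known to reach its target genes. This experiment holds 6 of the 81 samples of the series, RNA sequencing libraries of a mouse hybridoma line of mature T cells, chosen by the names of their count columns. The 3 sgRbpj+BioNICD1_WT libraries come from cells edited with CRISPR/Cas9 against Rbpj and infected with wild-type BioNICD1, the tagged intracellular domain of Notch1. The 3 sgRbpj+Biocontrol libraries come from cells of the same edited background infected with Biocontrol. The same constructs in the unedited background, Control_sgRbpj+BioNICD1_WT and Control_sgRbpj+Biocontrol with 3 libraries each, serve as comparison. The edited cells are called RBPJ-depleted cells and the unedited ones control cells. The labels do not say which edited line was used, whether it is 1 clone, or whether the libraries of a group are separate cultures. The p-values therefore measure the spread between libraries, which may be technical.

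Notch receptors are cut at the membrane after they bind a ligand, and the freed intracellular domain moves to the nucleus. There it binds RBPJ and a Mastermind protein and switches on genes such as Hes1, Hey1 and Dtx1. Without the intracellular domain, RBPJ sits with corepressors and holds many of the same genes down. In T cell development this pathway sets the T lineage and supports the growth of early precursors.

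The libraries held 8113019 to 10113741 counts over the 12 of the experiment, so that 3 counts correspond to 0.275 to 0.38 CPM (counts scaled by library size and TMM factor, the unit of all levels below). T cell genes such as Cd3d, Lck and Bcl11b were present in all 6 libraries. Among the markers of other cells, 6 of 7 for NK and innate lymphoid cells, 5 of 8 for B cells, 4 of 7 for fibroblasts, 3 of 7 for erythroid cells and 2 of 9 for myeloid cells were at 0 in all 6, and none of 6 plasma cell markers in the table was. The summed B cell markers were at 0.226 to 1.07 CPM with BioNICD1 and 0.241 to 0.55 CPM with Biocontrol. The summed myeloid markers were at 10.6 to 12.2 CPM with BioNICD1 and 10.2 to 13.7 CPM with Biocontrol. The summed fibroblast markers were the highest of these lists, at 253 to 281 CPM with BioNICD1 and 221 to 252 CPM with Biocontrol. Only 1 of them was tested, and it did not pass in RBPJ-depleted cells. The summed plasma cell markers were at 76.7 to 110 CPM with BioNICD1 and 105 to 132 CPM with Biocontrol. None of the 4 tested passed in edgeR or DESeq2, and 1 passed by voom, beside 1549 of all 11315 genes tested. At an unadjusted p below 0.05, 3 were lower, beside 2303 of all 11315 in either direction. The ribosomal transcript Rn45s held 0.0534, 0.0714 and 0.0642% of the counts in the BioNICD1 libraries and 0.0944, 0.101 and 0.0706% in the Biocontrol libraries.

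A pair of libraries stood apart. BioNICD1 library 1 differed from the other 2 of its group by an SD of 0.466 across genes (log2 CPM), and Biocontrol library 3 differed from its partners by 0.402. The remaining 4 libraries of RBPJ-depleted cells gave 0.162 to 0.307, and the 6 of control cells 0.154 to 0.218. These distant libraries come from opposite groups. BioNICD1 library 1 resembled Biocontrol library 3 more (r = 0.986 across genes) than its own partners (r = 0.979 and 0.982). Biocontrol library 3 was about as close to Biocontrol library 1 (r = 0.9866) as to BioNICD1 library 1. It was less close to Biocontrol library 2 (r = 0.9792). Both distant libraries had lower levels of some of the same transcripts than their partners. Tm2d1 was lower by a log2 difference of -2.26 in BioNICD1 library 1 and -2.92 in Biocontrol library 3. For Cox8a, a subunit of cytochrome c oxidase, the differences were -2.00 and -2.07. The deviations of the distant libraries from their partners ran with gene span (Spearman's rho 0.271 and 0.222). The span was known for 95.2% of 9334 genes, which are not independent replicates. The remaining libraries of RBPJ-depleted cells gave -0.159 to -0.279. Each of these was compared with a mean that includes a distant library, so their opposite sign is not independent of it. The same measure was 0.266 for BioNICD1 library 1 of control cells and -0.295 to 0.105 for the other 5 libraries of control cells. Whether this has a part in the gene-level results was not tested.

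The construct and the edit were read first. Notch1 reads, which include those of BioNICD1, were at 836, 981 and 847 CPM with BioNICD1 and at 4.94, 7.7 and 5.9 CPM with Biocontrol. The log2 fold change was 7.16 (SE 0.181, adjusted p = 2.74e-10), and both distant libraries fall with the groups their labels name. The construct reached 5.26 times its level in control cells, where BioNICD1 gave 169 ± 4.7 CPM and Biocontrol 0.846 ± 0.309 CPM (SD, n = 3 each). Rbpj itself, the edited gene, was at 23.2, 22.6 and 27.4 CPM with BioNICD1 and at 19.9, 19.3 and 18.7 CPM with Biocontrol. Control cells had 85.8 ± 2.63 CPM with BioNICD1 and 90.9 ± 2.86 CPM with Biocontrol, so depletion left 0.285 and 0.212 of the level of control cells. The Rbpj difference of 0.34 (log2, SE 0.0918) within RBPJ-depleted cells did not pass in edgeR (adjusted p = 0.0604), although the groups did not overlap. It passed with all libraries by DESeq2 and by voom, and in edgeR without BioNICD1 library 2.

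**Figure D1:**
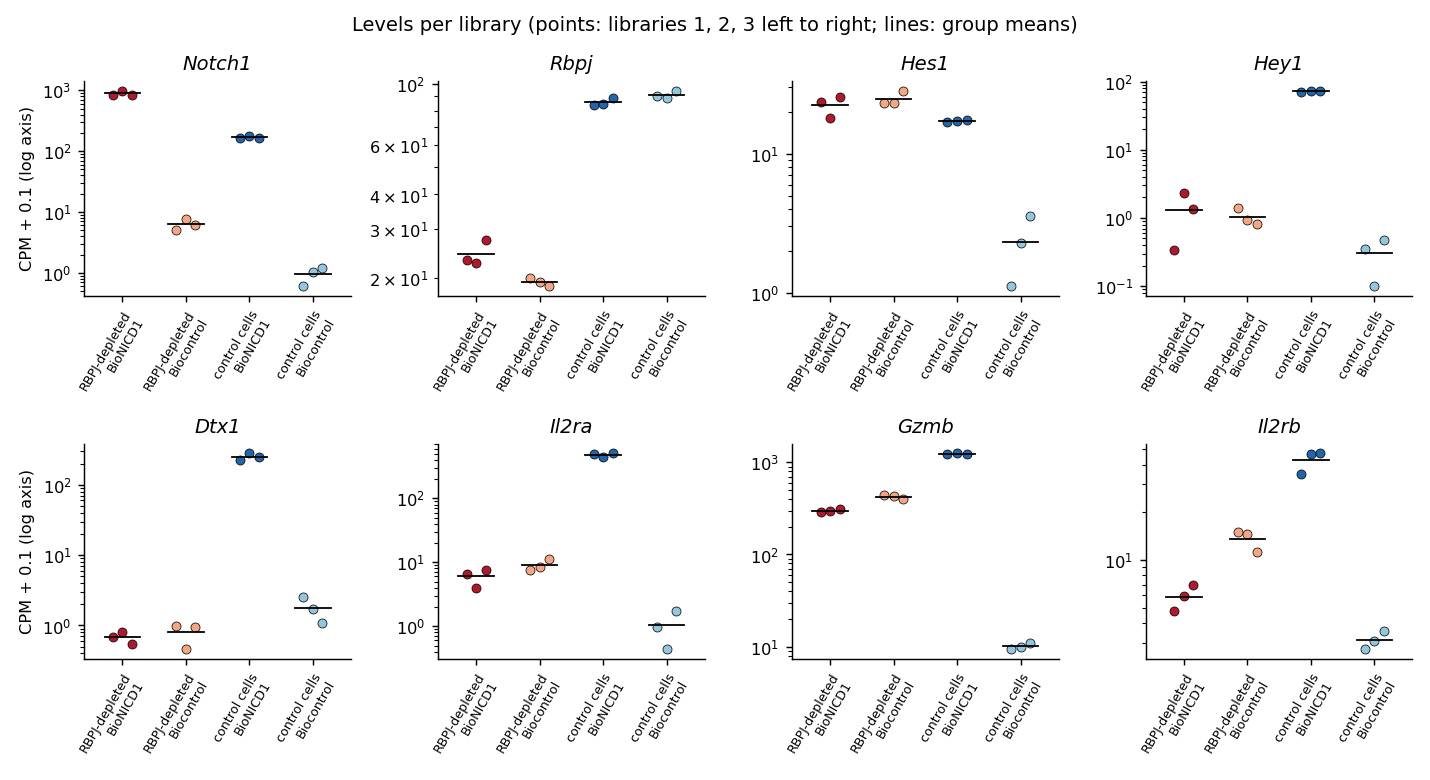
CPM + 0.1 (log axis, a different range in each panel) of Notch1, Rbpj, 4 Notch target genes, Gzmb and Il2rb in each of the 12 libraries, with a line at the group mean. Notch1 is high with BioNICD1 in both backgrounds, while Hey1, Dtx1, Il2ra and Il2rb are high with BioNICD1 in control cells and not in RBPJ-depleted cells.

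Across the 11315 genes tested, BioNICD1 changed 469 in RBPJ-depleted cells (4.14%), 305 upward (2.7%) and 164 downward (1.45%), at an adjusted p below 0.05. In control cells the same construct changed 3723 genes (32.9%), 2114 upward (18.7%) and 1609 downward (14.2%). The effect itself differed between the backgrounds for 2548 genes (22.5%), being higher in RBPJ-depleted cells for 1038 (9.17%) and lower for 1510 (13.3%). Among the genes that passed, the median size was 0.642 (log2) in RBPJ-depleted cells, with 85 of 469 over 2-fold. In control cells it was 0.68, with 1054 of 3723 over 2-fold. At an unadjusted p below 0.05 there were 2303 genes in RBPJ-depleted cells and 4892 in control cells.

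These counts rest on the spread pooled over all 12 libraries. Fitted on the 6 libraries of RBPJ-depleted cells alone, only Notch1 (7.16), Sptb (4.5) and Bcor (1.35) passed upward and Avil (-1.37) downward. In that fit 1243 of 10830 genes tested had an unadjusted p below 0.05, and 466 of the 469 kept their sign. The rest include Iigp1, which the filter of that fit left untested. Leaving out BioNICD1 library 1 gave 287 genes, of which 255 were among the 469. Leaving out Biocontrol library 3 gave 1224, 600 upward and 624 downward, with 453 of the 469 among them. Without both, 1285 passed, 679 upward and 606 downward, with 447 of the 469 kept and 838 gained. Leaving out Biocontrol library 1 or 2 gave 165 and 187. Leaving out a Biocontrol library of control cells gave 310, 306 and 304. Such a library is not part of the contrast and enters through the spread, the gene filter and the scaling. In all, 145 of the 469 passed in each of the 12 fits that left out 1 library, 99 upward and 46 downward. All 469 kept their sign in each of these 12 fits. The interaction count of 2548 moved to 4361 without Biocontrol library 3, and to 1629 and 1676 without Biocontrol libraries 1 and 2. It moved to 1662 without BioNICD1 library 2 of control cells and to 1614 without Biocontrol library 2 of control cells.

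**Figure D2:**
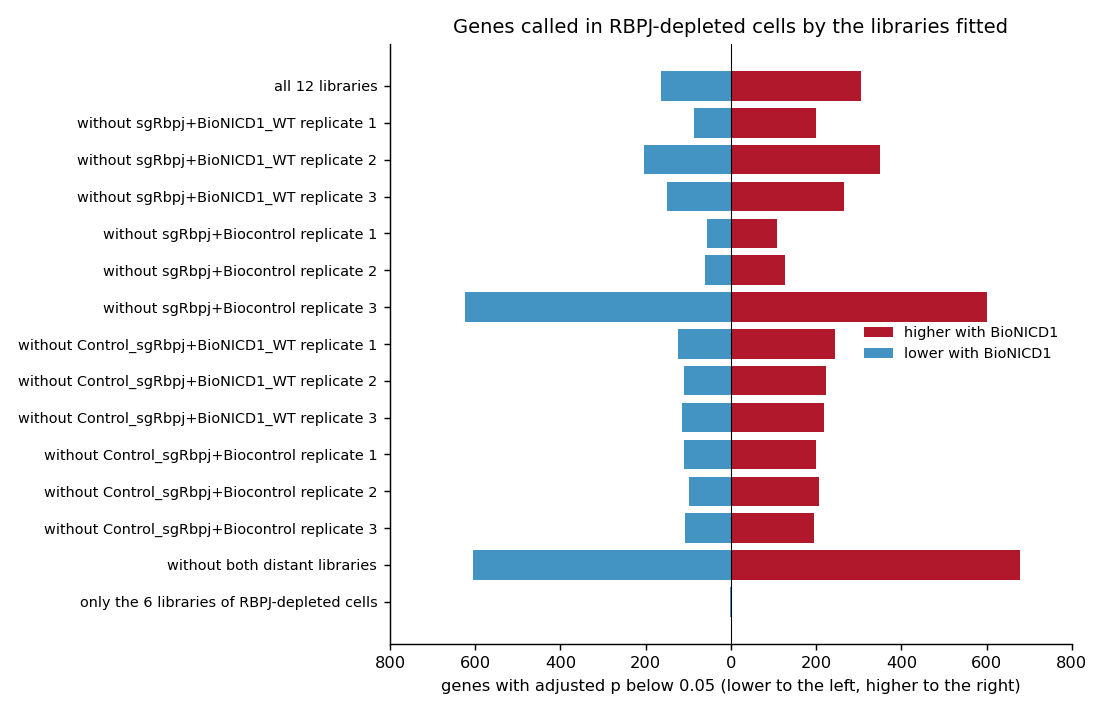
Number of genes with an adjusted p below 0.05 in RBPJ-depleted cells, higher with BioNICD1 to the right and lower to the left, for all 12 libraries, for each fit that leaves out 1 library, without both distant libraries, and for the 6 libraries alone. The total runs from 165 to 1224 over the fits that leave out 1 library and is 4 with the 6 libraries alone.

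None of the 12 Notch target genes tested passed in RBPJ-depleted cells, upward or downward, with all 12 libraries in edgeR or under any alternative tried, DESeq2 and voom included. Among all genes tested 4.14% passed in edgeR, so a list of this size would hold few calls at that share. At an unadjusted p below 0.05, 1 of the 12 was lower and none higher, beside 2303 of all 11315 genes in either direction. Hes1, a transcriptional repressor and a classical Notch target, was at 23.5, 18.1 and 25.4 CPM with BioNICD1 and at 23.2, 23.1 and 28.3 CPM with Biocontrol, a log2 fold change of -0.15 (SE 0.196, adjusted p = 0.663). The groups overlapped, and both lay above BioNICD1-infected control cells (17.2 ± 0.309 CPM) and Biocontrol-infected control cells (2.22 ± 1.22 CPM). Il2ra, the alpha chain of the interleukin-2 receptor, was at 6.55, 3.91 and 7.45 CPM with BioNICD1 and at 7.42, 8.34 and 11 CPM with Biocontrol (-0.58, adjusted p = 0.228). In control cells Il2ra was at 482 ± 28.5 CPM with BioNICD1 and at 0.946 ± 0.632 CPM with Biocontrol. Dtx1, an E3 ubiquitin ligase, was at 0.596, 0.701 and 0.452 CPM with BioNICD1 and at 0.89, 0.366 and 0.843 CPM with Biocontrol, against 249 ± 28.2 CPM in control cells with BioNICD1 and 1.67 ± 0.712 CPM in those with Biocontrol. Hey1, a relative of Hes1, was at 0.238, 2.2 and 1.24 CPM with BioNICD1 and at 1.29, 0.825 and 0.723 CPM with Biocontrol, so that the distant library held the lowest value of the 6. Without BioNICD1 library 2 its difference of 0.41 turned to -0.34.

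The other targets behaved alike. Lgmn, a lysosomal protease, was at 21.4, 28.3 and 31.6 CPM with BioNICD1 and at 32.6, 32.7 and 24 CPM with Biocontrol (-0.14, adjusted p = 0.688). The log2 fold change was 0.18 for Myc, a growth regulator, -0.15 for Gata3 and 0.00 for Tcf7, both T lineage transcription factors. Over the list the median was -0.05, beside -0.01 for all genes tested, with 6 of 12 above 0. In control cells 9 of the 12 rose, with a median of 1.54, beside 18.7% of all genes. The effect was lower in RBPJ-depleted cells for 8, beside 13.3% of all genes. Among 22 genes of the Notch machinery only Notch1 passed in edgeR (1 by DESeq2, 2 by voom), and Psen2, a subunit of gamma-secretase, was at -0.60 (adjusted p = 0.162). Among 22 RBPJ cofactors Bcor alone passed in edgeR (2 by DESeq2, 4 by voom), and Maml3, a Mastermind protein, was at -0.24 (adjusted p = 0.129). Among all 11315 genes tested, 469 (4.14%) passed in edgeR, 766 by DESeq2 and 1549 by voom.

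Interferon-stimulated genes had a median fold change near that of all genes tested in RBPJ-depleted cells (-0.04 and -0.01). Of 38 interferon-stimulated genes, 1 rose and 1 fell, close to the 2.7% and 1.45% of all genes. The effect was lower than in control cells for 36 by the test of the difference, beside 13.3% of all genes. In control cells all 38 rose with a median of 3.02, beside 18.7% of all genes that rose there. Iigp1, an interferon-inducible GTPase, was at 1.07, 0.501 and 0.904 CPM with BioNICD1 and at 0.297, 0.0916 and 0.241 CPM with Biocontrol, from 22 and 6 counts (1.92, adjusted p = 0.0326). Its call ended without either BioNICD1 library 1 or 3 and without Biocontrol library 1 or 2, and in control cells it was at 355 ± 28.2 CPM with BioNICD1 and 0.282 ± 0.0549 CPM with Biocontrol. Oas3, a sensor of double-stranded RNA, fell to 42.5, 47.6 and 44.3 CPM with BioNICD1, against 63.9, 66.6 and 62.9 CPM with Biocontrol (-0.52, SE 0.0837, adjusted p = 0.00416). It passed in each fit that left out 1 library. Tgtp1, another inducible GTPase, was at 1.43, 0.801 and 1.13 CPM with BioNICD1 and 0.593, 0.641 and 0.602 CPM with Biocontrol (0.83, adjusted p = 0.304). Iigp1 and Tgtp1 have close relatives in the genome, so their reads may be shared. Without Biocontrol library 3 the interferon count was 8, with 4 in each direction. It was 4 without BioNICD1 library 2, 6 without both distant libraries and 0 with the 6 libraries alone. Without BioNICD1 library 1 or 3, or Biocontrol library 1 or 2, it was 1.

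None of 18 MHC class I genes passed in RBPJ-depleted cells in edgeR (median -0.07), beside 4.14% of all genes. DESeq2 passed 1 and voom 3, beside 766 and 1549 of all 11315. At an unadjusted p below 0.05, 1 was higher and 2 lower, beside 2303 of all genes in either direction. All 18 rose in control cells (median 1.93), beside 18.7% of all genes. The effect was lower in RBPJ-depleted cells for 17, beside 13.3% of all genes. H2-D1, a class I heavy chain with close relatives, was at 130.2, 191 and 191 CPM with BioNICD1 and at 234, 260.2 and 189 CPM with Biocontrol (-0.41, adjusted p = 0.155), and it passed without Biocontrol library 3. B2m, the light chain, was at -0.35 (adjusted p = 0.25), and Nlrc5, a transactivator of class I genes, at -0.35 (adjusted p = 0.148). The MHC class I count was 2 without Biocontrol library 3 and 2 without both distant libraries. Of 9 cytotoxic genes tested, Gzmb alone passed in edgeR and in DESeq2, and 3 passed by voom. The median of the 9 was -0.36 (log2). At an unadjusted p below 0.05, 5 were lower and none higher, beside 2303 of all 11315 genes in either direction. In control cells 6 of the 9 rose and 2 fell, beside 18.7% and 14.2% of all genes. By the test of the difference 7 had a lower effect in RBPJ-depleted cells, beside 13.3% of all genes. This granule protease fell to 286, 298 and 312 CPM with BioNICD1, against 439, 434 and 401 CPM with Biocontrol (-0.51, SE 0.0907, adjusted p = 0.0085; adjusted p = 0.056 without Biocontrol library 1). In control cells Gzmb was at 1242 ± 8.06 CPM with BioNICD1 and 10.01 ± 0.772 CPM with Biocontrol. Il2rb, the beta chain of the interleukin-2 receptor, likewise moved in opposite directions. It fell to 4.65, 5.81 and 6.89 CPM with BioNICD1, against 15.03, 14.5 and 11.2 CPM with Biocontrol (-1.23, SE 0.185, adjusted p = 0.00356), and rose by 3.81 in control cells.

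**Figure D3:**
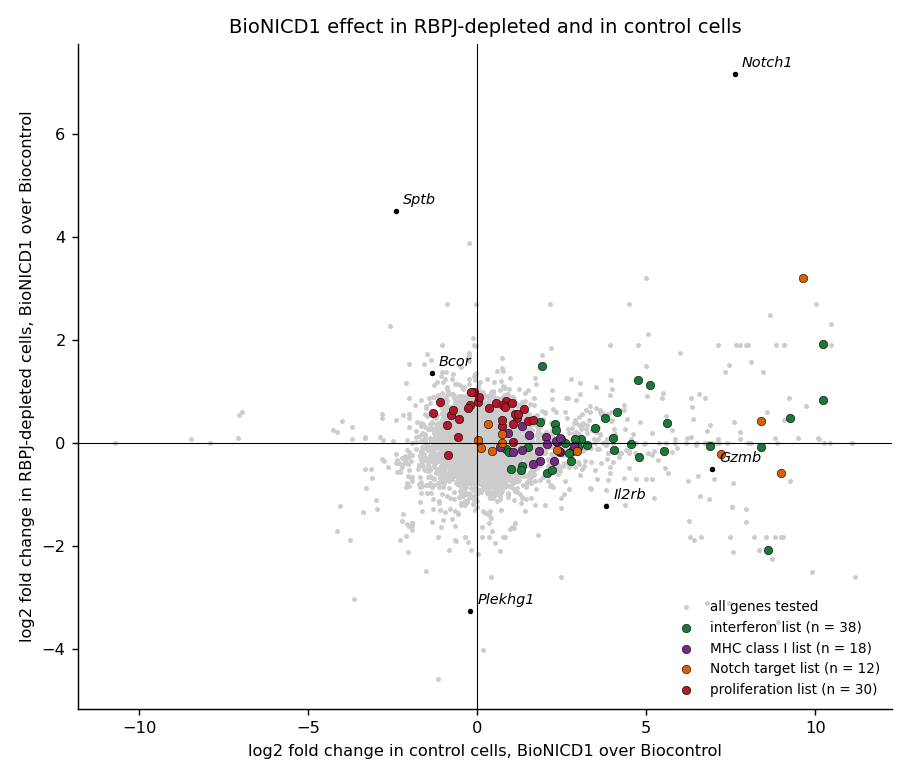
Log2 fold change of BioNICD1 over Biocontrol in RBPJ-depleted cells (vertical) against that in control cells (horizontal) for each gene tested, with the interferon, MHC class I, Notch target and proliferation lists in colour. The interferon, MHC class I and Notch target genes spread along the horizontal axis near 0 on the vertical, and most proliferation genes lie above 0 on the vertical axis.

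Genes of the cell cycle moved as a group in RBPJ-depleted cells. Of 30 proliferation genes, 22 rose and none fell, with a median of 0.61. The 3 BioNICD1 libraries lay entirely above or below the 3 Biocontrol libraries for 25 of the 30. Among all genes tested, 2.7% rose, and 9.09% lay entirely above and 9.19% entirely below. The same list had 14 genes higher and 8 lower in control cells (median 0.45), beside 18.7% and 14.2% of all genes. By the test of the difference the effect was higher in RBPJ-depleted cells for 12 and lower for 8, beside 9.17% and 13.3% of all genes. Mki67, a marker of cycling cells named after its values were seen, was at 3183, 2402 and 1806 CPM with BioNICD1 and at 1135, 1051 and 1520 CPM with Biocontrol. The distant libraries held the highest value of each group, and the groups came closest between BioNICD1 library 3 and Biocontrol library 3. The log2 fold change was 1.00 (SE 0.205, adjusted p = 0.0181), and the call ended without Biocontrol library 1 or 2. Top2a, a topoisomerase of dividing cells, also named after its values were seen, was at 2265, 1273 and 1276 CPM with BioNICD1 and at 722, 619.8 and 1099 CPM with Biocontrol. Its log2 fold change was 0.98 (adjusted p = 0.0469), and the call ended under 9 of the 12 single omissions: BioNICD1 library 1, Biocontrol library 1, Biocontrol library 2 and each control cell library. In bulk RNA a larger share of cycling cells and more RNA per cycling cell cannot be told apart.

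Other members were tighter. Aurkb, a mitotic kinase, rose to 61.6, 63 and 64.4 CPM with BioNICD1, against 38.9, 36.3 and 35.5 CPM with Biocontrol (0.77, SE 0.0758, adjusted p = 0.000538). Tyms, which makes thymidylate, rose to 122, 113 and 125 CPM with BioNICD1, against 76.6, 64.4 and 70.3 CPM with Biocontrol (0.77, adjusted p = 0.00149). Rrm2, a subunit of ribonucleotide reductase, rose to 369, 389.5 and 415 CPM, against 262, 234 and 244 CPM with Biocontrol (0.66, adjusted p = 0.00223). Mcm7 and Mcm6, subunits of the replicative helicase, rose by 0.56 and 0.57, Mcm6 to 402, 399 and 395 CPM with BioNICD1, against 270.4, 275 and 262 CPM with Biocontrol. For these 5 genes each BioNICD1 library exceeded each Biocontrol library, and the distant libraries lay near their partners. The call of each held in every fit that left out 1 library. Aurkb, Tyms, Rrm2 and Mcm7 were picked by the lowest p of the list, and Mcm6 was named after its values were seen. Their tightness and the hold of their calls follow in part from that pick and are no further support. All 5 also rose in control cells, by 0.56 for Aurkb, 1.03 for Tyms, 1.37 for Rrm2, 1.19 for Mcm7 and 1.11 for Mcm6. The rises of Rrm2, Mcm7 and Mcm6 were larger there by the test of the difference. The list count was 16 without BioNICD1 library 1, 24 without Biocontrol library 3 and 25 without both. It was 11 without Biocontrol library 1, 11 without Biocontrol library 2 and 0 with the 6 libraries alone, where the lowest adjusted p of the list was 0.103 (Aurkb).

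**Figure D4:**
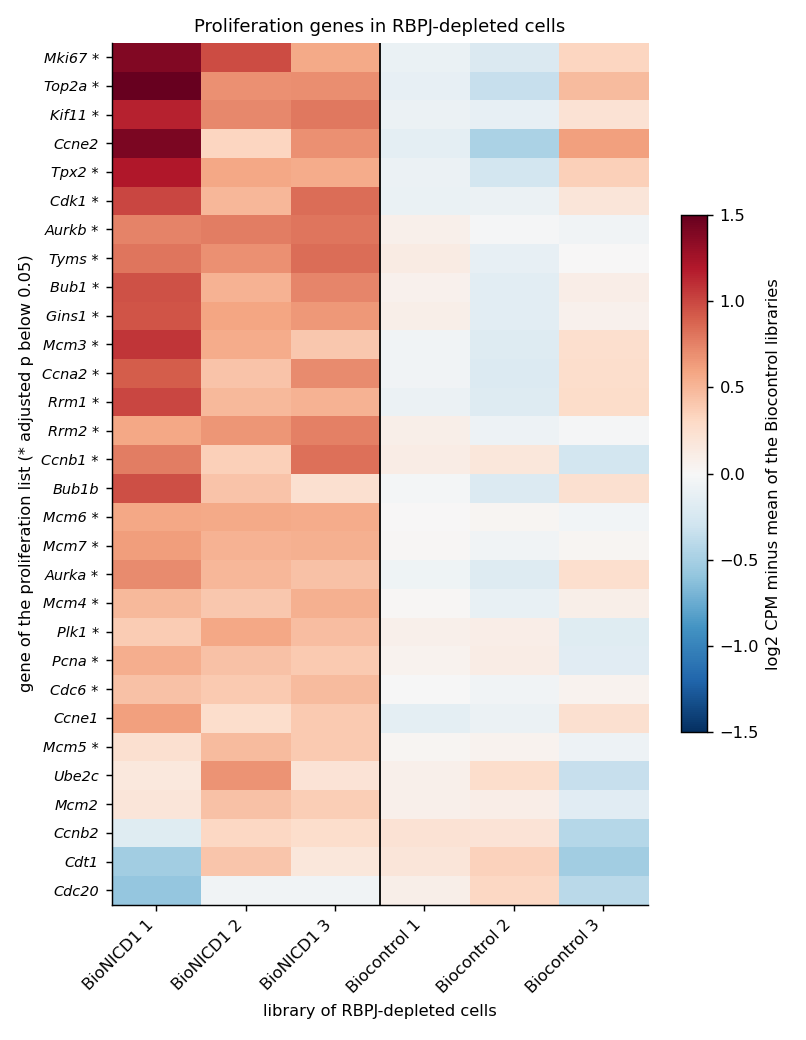
Log2 CPM of the 30 proliferation genes in the 6 libraries of RBPJ-depleted cells, each minus the mean of the 3 Biocontrol libraries, with BioNICD1 libraries left and Biocontrol libraries right; stars mark an adjusted p below 0.05. BioNICD1 library 1 is the darkest red for many genes, Biocontrol library 3 is often the reddest of its group, and BioNICD1 libraries 2 and 3 are also red for the 22 genes that passed.

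Lists of replication, mitosis and E2F genes, added after the fit had been seen, were read the same way as a description. Of 38 DNA replication and repair genes 25 rose and none fell (median 0.60), beside 2.7% of all genes that rose. Polq, a polymerase of end joining, was at 73.7, 75.6 and 64.5 CPM with BioNICD1 and at 35.4, 35.8 and 42.8 CPM with Biocontrol (0.91, adjusted p = 0.00118). The log2 fold change was 0.71 for Rad54l, a DNA translocase of homologous repair, and 0.80 for Bard1, a ubiquitin ligase subunit of the same pathway, and both passed. In control cells 30 of the 38 rose, beside 18.7% of all genes. By the test of the difference the effect was higher in RBPJ-depleted cells for 6 and lower for 9, beside 9.17% and 13.3% of all genes. The count of 25 was 22 without BioNICD1 library 1, 30 without Biocontrol library 3 and 34 without both. Without Biocontrol library 1 or 2 it was 12 and 15, and with the 6 libraries alone it was 0.

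Mitosis and kinetochore genes differed between the backgrounds. Of 34, 26 rose in RBPJ-depleted cells and none fell (median 0.77), beside 2.7% of all genes that rose. In control cells none rose and 16 fell (median -0.39), beside 18.7% and 14.2% of all genes. The test of the difference passed for 28 of the 34, all higher in RBPJ-depleted cells, beside 9.17% of all genes. Kif22, a chromosome-bound motor protein, was at 86, 86.7 and 85.3 CPM with BioNICD1 and at 53.1, 51.4 and 59.4 CPM with Biocontrol. Its log2 fold change was 0.66 (SE 0.0756, adjusted p = 0.00118) in RBPJ-depleted cells and -0.65 in control cells, where the levels were 67 ± 1.78 CPM with BioNICD1 and 105 ± 2.7 CPM with Biocontrol. Kif4, another motor of the mitotic chromosome, rose by 0.88 and fell by 0.38 in control cells, and Mad2l1, of the spindle checkpoint, rose by 0.57 and fell by 0.31 in control cells. Ncaph, a condensin subunit, rose by 0.86 and did not pass in control cells (0.17). The list count was 21 without BioNICD1 library 1, 31 without Biocontrol library 3 and 32 without both. Without Biocontrol library 1 or 2 it was 14 and 15, and with the 6 libraries alone it was 0. Gtse1, a protein of dividing cells and the only one of 11 p53-list genes to pass in edgeR (3 passed by DESeq2 and 3 by voom), rose by 0.52 in RBPJ-depleted cells and fell by 0.36 in control cells.

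E2F transcription factors switch on genes for DNA synthesis once RB proteins release them. Of 16 E2F and RB family genes 7 rose and none fell (median 0.39), beside 2.7% of all genes that rose. E2f1, an activator, was at 84.3, 95.4 and 83 CPM with BioNICD1 and at 61.7, 61 and 56.6 CPM with Biocontrol (0.55, adjusted p = 0.00379). E2f7, a repressive member, was at 44.7, 48.3 and 48 CPM with BioNICD1 and at 27.5, 32.3 and 31.4 CPM with Biocontrol (0.63, adjusted p = 0.00346). E2f8, its relative, rose by 0.76, and Mybl2, a partner of E2F-linked complexes, by 0.57. These 4 genes were picked by the lowest p of the list, and their groups did not overlap. Over the list the groups did not overlap for 11 of 16 genes, beside 2068 of all 11315 tested. Rises in Mybl2 and Rad54l were larger in control cells (1.40 and 1.27) by the test of the difference. The E2F list count was 5 without BioNICD1 library 1, 8 without Biocontrol library 3, and 8 up and 1 down without both. It was 4 without Biocontrol library 1 and 0 with the 6 libraries alone.

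The promoters of Mcm6, Mcm7 and E2f7 show the letters searched for as E2F motifs beside genes that rose. Each is the 250 bases before the start of the gene in RefSeq (build GRCm38.p6), 5′ to 3′ on the gene's strand, with the matches in capitals. Mcm6 lies at chr1:128359706-128359955 on the minus strand, Mcm7 at chr5:138171884-138172133 on the minus strand, and E2f7 at chr10:110745189-110745438 on the plus strand. They were picked because they hold a match; the table lists more than 1 start for Mcm7, and the first with a match is shown.
Mcm6: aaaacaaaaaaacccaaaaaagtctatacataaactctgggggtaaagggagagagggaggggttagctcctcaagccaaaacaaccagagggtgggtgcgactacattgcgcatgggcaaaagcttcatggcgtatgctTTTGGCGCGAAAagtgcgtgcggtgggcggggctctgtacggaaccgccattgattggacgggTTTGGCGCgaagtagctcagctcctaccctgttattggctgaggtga
Mcm7: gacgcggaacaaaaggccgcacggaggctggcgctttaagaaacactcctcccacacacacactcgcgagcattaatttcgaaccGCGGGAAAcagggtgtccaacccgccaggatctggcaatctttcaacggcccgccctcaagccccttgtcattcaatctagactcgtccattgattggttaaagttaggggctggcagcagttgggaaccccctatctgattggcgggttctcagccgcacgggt
E2f7: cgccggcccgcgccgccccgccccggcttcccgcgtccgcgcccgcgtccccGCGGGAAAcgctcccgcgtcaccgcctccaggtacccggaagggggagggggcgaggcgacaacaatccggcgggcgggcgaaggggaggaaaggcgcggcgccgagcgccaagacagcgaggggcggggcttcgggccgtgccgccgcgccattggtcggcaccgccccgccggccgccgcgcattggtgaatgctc
The motif was any of TTTGGCGC, TTTCCCGC, TTTGCCGC or TTTCGCGC on either strand, where matches may overlap, as in Mcm6 with 3, and a gene with several starts was counted once if any of them held it. Among genes that rose, 28 of the 230 with a promoter in the table held it (12.2%), against 3 of 111 that fell (2.7%), 4.07% of 8557 genes tested and 2.16% of all 27025. In the proliferation list 5 of 24 held it (20.8%). TGGGAA, the core that RBPJ is known to bind, was held by 27.4% of the promoters of genes that rose, 23.4% of those that fell, 23% of those tested, 24.1% of all and 6 of 14 in the Notch target list. A match describes the letters and not a bound site.

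Large folds were also found outside these lists. Sptb, beta-spectrin of the red cell membrane skeleton, was at 5.48, 5.11 and 4.18 CPM with BioNICD1 and at 0.297, 0.183 and 0.12 CPM with Biocontrol, 134 and 6 counts in all (4.50, SE 0.441, adjusted p = 0.000538). It was a 22.7-fold difference, present in each library and passing in every fit tried; in control cells Sptb had 2 counts with BioNICD1 and 10 with Biocontrol. Ifitm3, an antiviral membrane protein induced by interferon and outside the list above, was at 5.36, 6.01 and 9.37 CPM with BioNICD1 and at 1.09, 2.38 and 1.2 CPM with Biocontrol (2.11, adjusted p = 0.00346). Cntf, a neurotrophic cytokine, was at 1.67, 1.3 and 1.92 CPM with BioNICD1 and at 0.593, 0.458 and 0.482 CPM with Biocontrol (1.64, adjusted p = 0.0224; not passing without BioNICD1 library 1 or 3 or Biocontrol library 1 or 2).

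Most of the largest falls were of low genes. Plekhg1, a guanine exchange factor, was at 0.357, 0.601 and 0 CPM with BioNICD1 and at 2.57, 3.21 and 4.21 CPM with Biocontrol, from 9 and 96 counts (-3.27, adjusted p = 0.00379). Bmf, a proapoptotic relative of Bcl2, was at 0.357, 0.601 and 0.339 CPM with BioNICD1 and at 2.18, 2.2 and 1.57 CPM with Biocontrol (-2.15, adjusted p = 0.00459); its level in control cells was 2.76 with BioNICD1 and 2.74 with Biocontrol. Lcn2, a siderophore-binding protein, was at 4.76, 13.1 and 13.2 CPM with BioNICD1 and at 46.6, 41.1 and 28.1 CPM with Biocontrol, and it fell in control cells too (-1.89, and -2.28 there). Map1a, a microtubule-associated protein, fell by 2.09, Nos2, the inducible nitric oxide synthase, by 1.92, and Arhgef40 by 1.64, and Fam167b was 4.3-fold lower. Each of these passed in every fit that left out 1 library. Actg2, a smooth muscle actin, fell by 2.48 and Ildr1, a junction protein, by 1.92, but Actg2 lost its call without BioNICD1 library 1 or 2 and Ildr1 without BioNICD1 library 1 or 3, and both without Biocontrol library 1 or 2; Ildr1 also lost it without Biocontrol library 3 of control cells. Avil, an actin-binding protein named after its values were seen, was the clearest fall, at 40.6, 47.1 and 35.1 CPM with BioNICD1 and at 107, 108 and 105 CPM with Biocontrol (-1.38, SE 0.104, adjusted p = 4.46e-05). It fell by 2.19 in control cells.

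Some genes passed in opposite directions in the 2 backgrounds. Bcor, a corepressor of BCL6 and of a Polycomb complex, was at 80.6, 66.4 and 70.5 CPM with BioNICD1 and at 26.4, 26.7 and 32.3 CPM with Biocontrol. It rose by 1.35 (SE 0.0998, adjusted p = 4.46e-05), a 2.55-fold difference with no overlap, and it passed in every fit tried. In control cells Bcor fell to 56.8 ± 0.76 CPM with BioNICD1, against 145 ± 4.29 CPM with Biocontrol, a log2 fold change of -1.35. Of 11 genes of its Polycomb complex and partners, Bcor alone passed in RBPJ-depleted cells. Ccr9, a gut-homing chemokine receptor, was at 3.57, 3.81 and 3.73 CPM with BioNICD1 and at 1.19, 0.916 and 1.81 CPM with Biocontrol (1.54, adjusted p = 0.00459) and fell by 1.59 in control cells. Xk, a membrane protein of red cells, rose by 1.53 and fell by 2.02 in control cells. Rpgr, of the cilium, rose by 2.27 and fell by 2.58 in control cells, and Zc4h2, a zinc finger protein, rose by 1.73 and fell by 1.48 there. Rasal1, a Ras GTPase activator, fell by 1.32 in RBPJ-depleted cells and rose by 1.41 in control cells. Rpgr, Zc4h2 and Rasal1 lost their calls without BioNICD1 library 1, Biocontrol library 1 or Biocontrol library 2, and under some other single omissions. Stbd1, a glycogen-binding protein, fell in both, by 1.23 in RBPJ-depleted cells (adjusted p = 0.0168; ended without BioNICD1 library 3 or Biocontrol library 1) and by 4.08 in control cells.

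Shared calls lay above the share over all genes, and opposed calls lay near or below it. Of the 305 genes that rose in RBPJ-depleted cells, 126 (41.3%) rose and 50 (16.4%) fell in control cells. Of the 164 that fell, 73 (44.5%) fell and 23 (14%) rose there. Among all genes tested, 18.7% rose and 14.2% fell in control cells. Seen from the larger lists, 126 of 2114 genes that rose in control cells (5.96%) also rose in RBPJ-depleted cells, beside 2.7% of all genes. Of 1609 that fell, 73 (4.54%) also fell, beside 1.45% of all genes. The contrasts share no library, only the gene filter, the scaling and the estimate of the spread. Across all 11315 genes, which are not independent replicates, the fold changes had a Pearson r of -0.00296 and a Spearman rho of -0.136. Among the 469, r was 0.297 and rho 0.234.

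X-linked genes made up a larger share of the genes that rose than of the genes tested, a description with no test, with chromosomes taken from RefSeq (GRCm38.p6). Of 365 X-linked genes tested 29 rose (7.95%) and none fell, beside 2.5% of autosomal genes that rose. Over 2-fold, 13 of 37 genes that rose were X-linked, among them Bcor, Rpgr, Fundc1, Xlr3b, Xlr3c, Xk, Zc4h2 and 3830403N18Rik. Fundc1, a mitophagy receptor, was at 4.88, 3.71 and 4.29 CPM with BioNICD1 and at 0.989, 0.916 and 2.05 CPM with Biocontrol (1.74, adjusted p = 0.00574). Xlr3c, of the X-linked lymphocyte-regulated family, was at 15.1, 8.91 and 12 CPM with BioNICD1 and at 3.96, 2.57 and 4.7 CPM with Biocontrol (1.69, adjusted p = 0.00209). Xlr3b rose by 1.65; it and Xlr3c are near-identical copies whose reads may be shared. 3830403N18Rik rose by 1.88, but passed in only 3 of the 12 fits that left out 1 library.

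The X-linked difference was spread over the chromosome's genes, of which 69.6% had a positive fold change, against 48.2% of autosomal genes. It was not particular to X: chromosome 1 came next, with 63.8% positive, a median of 0.118 and 4.62% of genes that rose. The median log2 fold change of X-linked genes was 0.16, against -0.01 for autosomal genes, and -0.19 for X-linked genes in control cells. Over the 272 X-linked genes with a mean of at least 5 CPM, the median level relative to the mean of the Biocontrol libraries (log2) was 0.268, 0.0932 and 0.157 in the BioNICD1 libraries and -0.0175, -0.0526 and 0.0695 in the Biocontrol libraries. The distant library was the highest of each group. On the same scale control cells were at 0.396, 0.407 and 0.408 with BioNICD1 and at 0.59, 0.635 and 0.607 with Biocontrol. Other chromosomes were offset between the backgrounds too. Control cells with Biocontrol were at 0.359, 0.347 and 0.348 on chromosome 12 and at -0.371, -0.363 and -0.352 on chromosome 8. The count of 29 was 17 without BioNICD1 library 1, 13 and 15 without Biocontrol libraries 1 and 2, 53 up and 5 down without Biocontrol library 3, 61 up and 6 down without both distant libraries, and 1 with the 6 libraries alone. The X-linked median stayed between 0.088 and 0.202 under all alternatives, with 0.154 without both distant libraries.

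**Figure D5:**
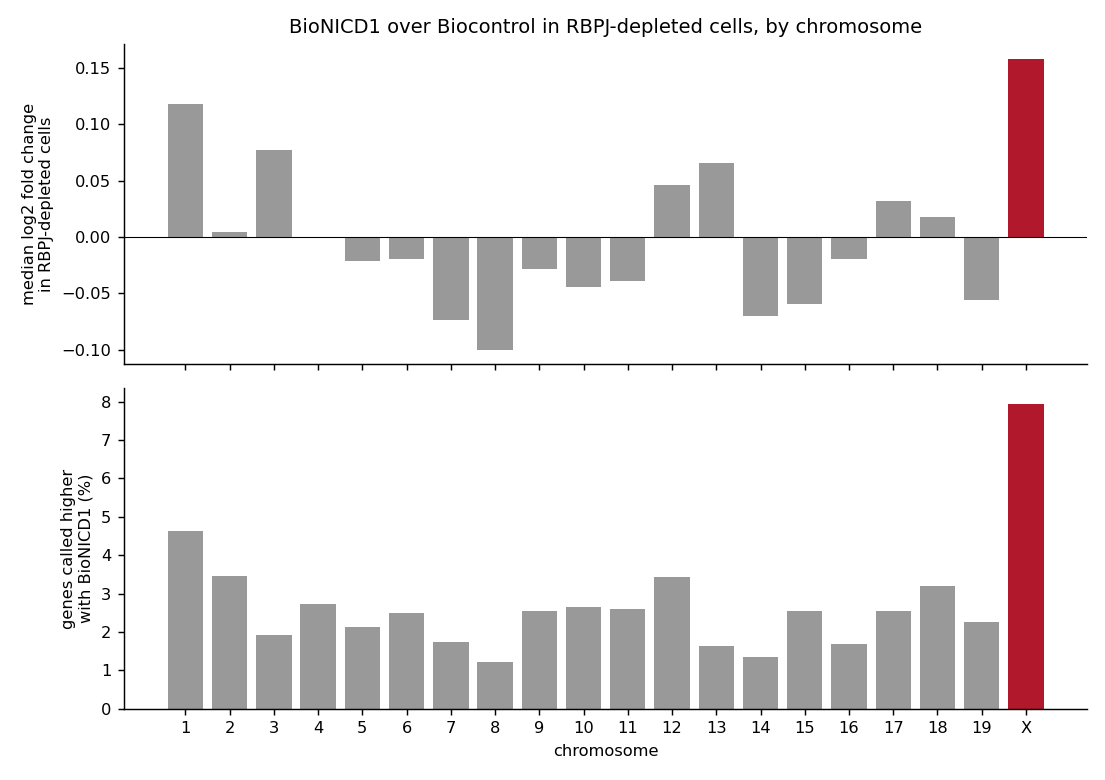
Median log2 fold change of BioNICD1 over Biocontrol in RBPJ-depleted cells (top) and percent of genes tested that rose (bottom), by chromosome. The X chromosome has the highest bar in both panels, at 0.158 and 7.95%.

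Immediate early genes respond within minutes to stimulation. In this list, added after the fit had been seen, 6 of 19 fell, 1 rose and 12 did not pass, beside 1.45% of all genes that fell and 2.7% that rose; the list median was -0.44. Fos was at 14.3, 17.4 and 18.2 CPM with BioNICD1 and at 32.7, 33.6 and 27.3 CPM with Biocontrol (-0.91, SE 0.128, adjusted p = 0.00308). Fosb fell by 0.66 and Rhob, a small GTPase, by 1.04; both lost their calls without BioNICD1 library 1 or Biocontrol library 1, Rhob also without Biocontrol library 2, and Fosb without several control cell libraries. Egr1, a zinc finger factor, rose by 0.58 (adjusted p = 0.0102; 0.06 without Biocontrol library 1). The number that fell was 1 without BioNICD1 library 1, 8 without Biocontrol library 3, 7 without both, and 1 and 2 without Biocontrol libraries 1 and 2. It was 4 without BioNICD1 library 2, 2 to 4 without a control cell library, 3 with the replicate number as a block (Fos, Fosb and Rhob) and 0 with the 6 libraries alone.

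Of 18 genes of oxidative and xenobiotic defence, also a list added later, 4 fell, none rose and 14 did not pass in RBPJ-depleted cells (median -0.28), beside 1.45% of all genes that fell. In control cells 14 of the 18 fell and 2 rose, beside 14.2% of all genes that fell. Hmox1, which degrades heme, was at 24.2, 37 and 36.3 CPM with BioNICD1 and at 72.3, 76.1 and 60.5 CPM with Biocontrol (-1.10, SE 0.15, adjusted p = 0.00276). Sqstm1, an autophagy receptor, was at 637, 665 and 636 CPM with BioNICD1 and at 1020.3, 984 and 962 CPM with Biocontrol (-0.61, adjusted p = 0.00376). Ugt1a6a, a glucuronidating enzyme that shares exons with other Ugt1a genes, fell by 1.69, and Akr1b7, an aldo-keto reductase, by 1.54; the call of Akr1b7 ended without Biocontrol library 1 or 2. The groups did not overlap for these 4 genes, which are those that passed. Over the list the groups did not overlap for 11 of 18 genes, beside 2068 of all 11315 tested. The count of 4 was 4 without BioNICD1 library 1, 6 without Biocontrol library 3, 5 without both and 0 with the 6 libraries alone.

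The remaining lists held few calls in edgeR. Beside them, 4.14% of all genes tested passed in edgeR, 766 of 11315 by DESeq2 and 1549 by voom. At an unadjusted p below 0.05 there were 2303 of the 11315 in either direction. Of 20 T cell identity genes Cd3d alone passed, while 3 passed by DESeq2 and 5 by voom, and 5 were higher and none lower at an unadjusted p below 0.05. This subunit of the T cell receptor complex was at 67.5, 62.7 and 70.0 CPM with BioNICD1 and at 43.7, 41 and 45 CPM with Biocontrol (0.63, SE 0.0765, adjusted p = 0.00167). Lck, the kinase beside that receptor, was at 0.24 (adjusted p = 0.12), and Bcl11b, a T lineage factor, at 0.22 (adjusted p = 0.159). Of 20 T cell activation genes Egr1 rose and Il2rb fell (3 passed by DESeq2 and 6 by voom), and Tnfrsf9, a costimulatory receptor, was at -0.28 (adjusted p = 0.113). Of 17 chemokine receptor and homing genes Ccr9 and Ccr4 rose (2 passed by DESeq2 and 4 by voom), Ccr4 to 50.1, 38.9 and 43.1 CPM with BioNICD1, against 25.2, 29.6 and 32.9 CPM with Biocontrol (0.59, adjusted p = 0.0124; 0.069 without Biocontrol library 1). Of 26 glycolysis and hypoxia genes, with 3 passing by DESeq2 and 3 by voom, Adm, a vasoactive peptide, fell by 0.53 and Aldoc, an aldolase, by 0.70; Adm lost its call without BioNICD1 library 3, and Aldoc under 10 of the 12 single omissions. Of 26 ER stress and ATF4 genes, with 2 passing by DESeq2 and 5 by voom, Trib3, a pseudokinase, fell by 0.84, a call that ended under 9 of the 12. Of 16 BCL2 family and apoptosis genes Bmf alone passed, while 6 passed by DESeq2 and 6 by voom, and 5 were higher and 4 lower at an unadjusted p below 0.05. In edgeR none passed of 22 ribosome biogenesis and MYC-linked genes, 20 cholesterol synthesis genes, 13 NF-kappaB targets or 21 oxidative phosphorylation genes, and DESeq2 gave 0 for each of these lists too. Of the ribosome biogenesis genes 20 lay above 0 (median 0.26), 9 at an unadjusted p below 0.05, and 6 passed by voom. At an unadjusted p below 0.05 there were 2 higher and 2 lower cholesterol genes, 1 lower NF-kappaB target and 2 higher oxidative phosphorylation genes, and voom passed 1, 1 and 2 genes of these lists. Dkc1, of the first of these lists, was at 501, 298 and 299.6 CPM with BioNICD1 and at 218, 184 and 313 CPM with Biocontrol (0.62, adjusted p = 0.141), and it passed without Biocontrol library 3. Among the other-cell markers Lyz2, a myeloid lysozyme, rose by 0.93 with 83 counts in BioNICD1 libraries and 47 in Biocontrol libraries (adjusted p = 0.0387), a call that ended under 11 of the 12.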

How the data were processed

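RNA was sequenced from total RNA, per the labels' protocols with a stranded, ribosomal-RNA-depleted kit "or others". The authors deposited raw read counts per gene symbol, 24391 symbols in 65 columns; 12 columns were used here and 53 were not. The mouse build mm9 and the tools TopHat2 (version 2.1.1), deepTools and Picard are listed in the submitters' processing notes, with no role given. The counting tool, its strand setting and the annotation are not given in the sources used here. Overlapping and antisense genes may therefore share reads. The region lists were not used, since no annotation of their build was at hand.

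The counts of 12 libraries were filtered with filterByExpr, scaled by TMM and fitted with a mean for each of the 4 groups, using R 4.3.3 and edgeR 4.0.16. Contrasts were tested by edgeR's quasi-likelihood test, two-sided. P-values were adjusted by Benjamini-Hochberg over 11315 genes, with a threshold of 0.05 and a prior count of 0.125 in fold changes. The alternatives were RLE factors, DESeq2 1.42.0, limma 3.58.1 voom with sample weights, robust dispersion, no filter, a replicate block, leaving out each library or both distant ones, and the 6 libraries alone. On simulated data for the comparison in RBPJ-depleted cells, run on 11315 genes, 26.5% of 200 genes changed 1.5-fold and 76% of those changed 2-fold were recovered. Unchanged genes gave 4 and 8 false calls. Each gene was drawn independently, so the simulation holds no deviation shared by many genes, such as that of the distant libraries. It does not measure their effect on the calls. Fold changes of genes with few counts in a group, such as Sptb, Plekhg1 and Iigp1, depend on the prior count. Count floors cover counting error only.

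Named genes followed a rule: Notch1, Rbpj and the Notch targets; up to 10 genes per direction of largest fold change that passed without overlap at a mean of at least 1 CPM; up to 4 members of each other list by p; and up to 6 genes passing in opposite directions, with further parts for the interaction and the distant libraries. Mki67, Top2a, Mcm6 and Avil were added after their values were seen. The members, lists and tests were chosen with earlier results of these data known, and the lists of DNA replication and repair, mitosis, E2F, oxidative defence, immediate early and Bcor complex genes after the fit was seen. Of the genes tested 545 had no RefSeq symbol match and enter no chromosome count. No library was a duplicate of another: each pair within a group of RBPJ-depleted cells differed by more than sampling noise (chi-square per gene 5.07 to 52.6).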

Additional observations from a re-analysis of the deposited data

Results flagged for a closer look

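The BioNICD1 effect was higher or lower in RBPJ-depleted than in control cells for 2548 genes by the interaction test of the 12-library fit (adjusted p below 0.05), and the named genes among them are given here as the log2 effect in RBPJ-depleted cells minus that in control cells. Negative values mean a lower effect in RBPJ-depleted cells. In the edited gene the difference was 0.42 for Rbpj. Among Notch targets it was -3.10 for Hes1, -7.97 for Hey1, -7.43 for Dtx1, -9.57 for Il2ra, -2.48 for Lgmn, -0.56 for Myc, -0.58 for Gata3 and -0.72 for Tcf7. Among interferon, antigen presentation and cytotoxic genes it was -8.31 for Iigp1, -9.39 for Tgtp1, -1.81 for Oas3, -2.93 for Ifitm3, -2.19 for B2m, -2.06 for H2-D1, -2.63 for Nlrc5 and -7.46 for Gzmb.

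Among genes of the cell cycle, DNA synthesis and mitosis it was 1.09 for Mki67, 1.17 for Top2a, 1.30 for Kif22, 1.26 for Kif4, 0.88 for Mad2l1, 0.70 for Ncaph, 0.88 for Gtse1, 0.53 for Polq, -0.54 for Mcm6, -0.63 for Mcm7, -0.70 for Rrm2, -0.57 for Rad54l and -0.83 for Mybl2. Among X-linked genes it was 2.71 for Bcor, 4.86 for Rpgr, 3.55 for Xk, 3.21 for Zc4h2, 1.99 for Fundc1, 1.93 for Xlr3b, 1.93 for Xlr3c and 1.91 for 3830403N18Rik, all higher in RBPJ-depleted cells. Among receptors and T cell genes it was -5.04 for Il2rb, -2.56 for Tnfrsf9, 3.13 for Ccr9, -1.73 for Ccr4, 0.66 for Cd3d, -0.97 for Lck and -0.36 for Bcl11b. Among immediate early and metabolic genes it was -1.17 for Fos, -1.06 for Fosb, -0.80 for Egr1, -1.89 for Adm and -1.67 for Aldoc. Among the others it was 6.91 for Sptb, -2.16 for Bmf, -2.77 for Fam167b, 2.84 for Stbd1, -2.73 for Rasal1, 1.82 for Lyz2, -0.73 for Maml3 and 0.82 for Avil. Values for genes with few counts in a group of control cells, such as Sptb (2 counts with BioNICD1 and 10 with Biocontrol) and Ifitm3 (94 and 2), depend on the prior count. No explanation of these differences was tested.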

How the results depend on the processing

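The genes that passed in RBPJ-depleted cells numbered 469 in the main fit and 766 by DESeq2, 1549 by voom with sample weights, 1285 without both distant libraries and 4 with the 6 libraries alone. They ran from 165 to 1224 over the fits that left out 1 library. With RLE factors, robust dispersion and no filter there were 464, 451 and 414. The share of upward calls was 65% in the main fit, 49% without Biocontrol library 3, 52.8% without both distant libraries and 54.8% by voom. The interaction count of 2548 was 5337 by voom, 4665 without both distant libraries and 1614 to 4361 over the single omissions. The count in control cells, 3723, was 6318 by voom, 5882 without both distant libraries and 2701 to 4663 over the single omissions. The proliferation count of 22 was 0 with the 6 libraries alone and 11 to 24 over the single omissions. The interferon count of 2 was 5 by DESeq2, 7 by voom, 6 without both distant libraries and 0 with the 6 libraries alone, and 1 to 8 over the single omissions. The MHC class I count of 0 was 1 by DESeq2, 3 by voom, 2 without both distant libraries and 0 to 2 over the single omissions. The Notch target count was 0 under each. The fit on 6 libraries has fewer samples and drops those of control cells. What caused these shifts, that of the 6-library fit included, was not tested.

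Over 81 genes, 1422 values kept direction and side of the threshold, 171 no longer passed, 57 of them with the 6 libraries alone, and 15 newly passed. None of the genes that passed reversed. Reversals touched Hey1 (-0.34 to 0.87 over the single omissions), Dtx1 (-0.55 to 0.0293), Lgmn (-0.27 to 0.00776) and Tcf7 (-0.0538 to 0.0742, and -0.00925 with no filter). Deviations of same-numbered libraries correlated at -0.396, 0.549 and -0.449 between BioNICD1 and Biocontrol in RBPJ-depleted cells, and at 0.525, 0.384 and 0.266 between BioNICD1 in RBPJ-depleted and in control cells. For 7 of 12 libraries the closest partner had the same number, a hint from the data; the labels do not say what a number marks. Adding them to the fit as a replicate block gave 440 genes in RBPJ-depleted cells, 2633 for the interaction and 3813 in control cells. With this replicate block 20 proliferation, 0 Notch target, 3 interferon and 0 MHC class I genes passed, and 3 in place of 6 immediate early genes fell. The share of genes with an RBPJ region near the start site, at 5 kb or 1 kb, was not run.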
